A study of Mus musculus with 8 samples.

Results

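The neurotrophins are secreted growth factors of neurons, and 6 genes of the system were followed here: the ligands Bdnf and Ntf3, the receptor tyrosine kinases Ntrk2 and Ntrk3, the p75 receptor Ngfr, and the sorting receptor Sort1. They were taken by symbol from a deposited table of 17613 genes, and all 6 passed the filter on low counts that left 15902 tested genes. The table comes from polyadenylated brain RNA of C57BL/6 mice, sequenced from stranded libraries. Of its 8 libraries, 4 were labelled wild type (WT) and 4 were labelled Uhrf2 knockout (KO). The KO label stands for loss of the nuclear protein UHRF2, which binds oxidised methylcytosine in DNA, but protein was not measured here. The series title ties the gene to local DNA methylation and to spontaneous seizures. No source used here gives the age of the mice or the way the allele was made, and the labels do not say whether each library is a separate animal. The p-values therefore measure the spread between these libraries, which may be technical.

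Each neurotrophin is made as a longer precursor that proteases cleave to the mature, dimeric factor. The mature factors bind Trk receptors, which signal through the MAP kinase, PI3 kinase and phospholipase C gamma routes. BDNF acts through TrkB, the product of Ntrk2, and neurotrophin 3 acts mainly through TrkC, the product of Ntrk3. The p75 receptor binds all neurotrophins, and with sortilin, the product of Sort1, it binds their uncleaved precursors. In the forebrain, Bdnf is transcribed from several promoters, and some of them respond to calcium entry during neuronal firing and to seizures.

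Bdnf has many starts that join 1 shared coding exon, and the counts here sum them all. RefSeq windows on GRCm38.p6, each 250 bases before to 50 after a start, were found for 4 of the 6 members. They comprise 7 windows for Bdnf, 2 for Ntf3 and 1 each for Ntrk2 and Ngfr. The windows below are shown because the result turns on Bdnf, whose starts differ in the letters around them, and because Ntf3 is its paralogue. Capitals mark any match to CGTCA or its reverse complement TGACG (the half-site of the cyclic AMP response element), to the E-box CACGTG, or to GCGTGGGCG or GCGGGGGCG (EGR sites), on either strand. The Bdnf windows lie on the plus strand, at chr2:109674450-109674749, chr2:109692186-109692485 and chr2:109709133-109709432. The Ntf3 window lies on the minus strand at chr6:126166695-126166994.
Bdnf start 1: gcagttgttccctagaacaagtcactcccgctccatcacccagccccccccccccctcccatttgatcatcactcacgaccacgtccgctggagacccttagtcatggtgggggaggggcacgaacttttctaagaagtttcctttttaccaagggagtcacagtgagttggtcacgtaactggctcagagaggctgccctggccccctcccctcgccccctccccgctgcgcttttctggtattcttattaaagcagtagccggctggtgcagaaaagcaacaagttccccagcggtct
Bdnf start 3: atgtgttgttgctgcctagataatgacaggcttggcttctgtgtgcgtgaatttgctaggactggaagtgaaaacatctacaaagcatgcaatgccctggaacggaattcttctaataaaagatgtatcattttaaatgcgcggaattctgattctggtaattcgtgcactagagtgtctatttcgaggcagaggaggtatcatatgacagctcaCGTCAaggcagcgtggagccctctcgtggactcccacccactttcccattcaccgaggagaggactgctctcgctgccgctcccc
Bdnf start 6: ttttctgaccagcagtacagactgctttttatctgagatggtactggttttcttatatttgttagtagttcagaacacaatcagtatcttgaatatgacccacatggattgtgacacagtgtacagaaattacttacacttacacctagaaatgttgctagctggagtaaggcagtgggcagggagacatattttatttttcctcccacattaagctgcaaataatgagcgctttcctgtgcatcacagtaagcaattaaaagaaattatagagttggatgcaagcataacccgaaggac
Ntf3 start 1: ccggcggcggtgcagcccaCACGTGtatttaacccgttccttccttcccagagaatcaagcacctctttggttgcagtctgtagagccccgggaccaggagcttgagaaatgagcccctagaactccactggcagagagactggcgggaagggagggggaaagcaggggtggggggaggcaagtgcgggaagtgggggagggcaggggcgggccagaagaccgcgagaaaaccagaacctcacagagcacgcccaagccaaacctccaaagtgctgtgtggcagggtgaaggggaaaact

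The window of Bdnf start 3, which surrounds the start of exon IV, held the only match to CGTCA among the 7 Bdnf windows, beginning 35 bases before the start. Of all 32851 windows of this length, 20.8% hold that half-site. The full element TGACGTCA occurs in 1.79% of all windows and in none of the 11 windows of the members. The window of Ntf3 start 1 held the only E-box of the 11, against 7.15% of all windows, and no EGR site was found, against 3.47%. The number of CpG dinucleotides ran from 2 at Bdnf start 6 to 13 at Bdnf start 5, was 12 and 17 at the Ntf3 starts, and was 23 in each of the Ntrk2 and Ngfr windows, where the median of all windows is 7. These matches describe letters only, since neither binding nor methylation was measured in these libraries.

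Library totals ran from 11891350 to 19773921 counts. Levels are given as CPM, a count relative to its library's total, scaled by TMM factors between 0.9885 and 1.013. Uhrf2, read first as a check of the labels, was higher in the libraries labelled KO, at 86.4 to 91.8 CPM against 47.7 to 58.9 CPM in those labelled WT (log2 fold change 0.68, SE 0.06, adjusted p = 5.45e-06). Counts per gene cannot show whether part of the transcript is deleted. Groups are named by their labels, and every direction given here rests on them. All listed markers of excitatory and inhibitory neurons, astrocytes, oligodendrocytes and microglia were found above 0. On the second principal component of log2 CPM, which held 19.8% of the variance, WT replicate 1 and KO replicate 1 stood apart, with scores of 13.1 or more against -9.02 to -2.49 in the other 6 libraries. Adjusted p-values come from quasi-likelihood tests in edgeR, adjusted by the Benjamini-Hochberg method over all 15902 tested genes, with a threshold of 0.05.

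Bdnf, the ligand of TrkB, had the largest difference of the 6 members, but it did not pass the threshold. Of the 6 members, 0 passed, where 1.43% of all tested genes did. Bdnf (ENSMUSG00000048482, chromosome 2, 109674700 to 109727007 on GRCm38, plus strand) stood at 25.1, 23.5, 27.4 and 33.0 CPM in WT replicates 1 to 4. It stood at 58.8, 34.1, 40.8 and 38.4 CPM in KO replicates 1 to 4. Every KO library lay above every WT library, but KO replicate 2 lay only just above WT replicate 4, and KO replicate 1 lay far above the rest. The fitted log2 fold change was 0.65 (SE 0.19, 95% interval 0.19 to 1.11), a fold of 1.57 with an interval of 1.14 to 2.16. The unadjusted p was 0.0128 and the adjusted p was 0.233 (quasi-likelihood test of edgeR). The exact two-sided permutation test on log2 CPM gave p = 0.0286, the smallest that 4 against 4 libraries can give. Groups that do not overlap always give this value, so the permutation test only restates that separation. Bdnf was the only one of the 6 members whose groups did not overlap, a pattern that 7.67% of all tested genes showed. In bulk RNA, more cells that express a gene and more RNA per cell cannot be told apart.

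**Figure D1:**
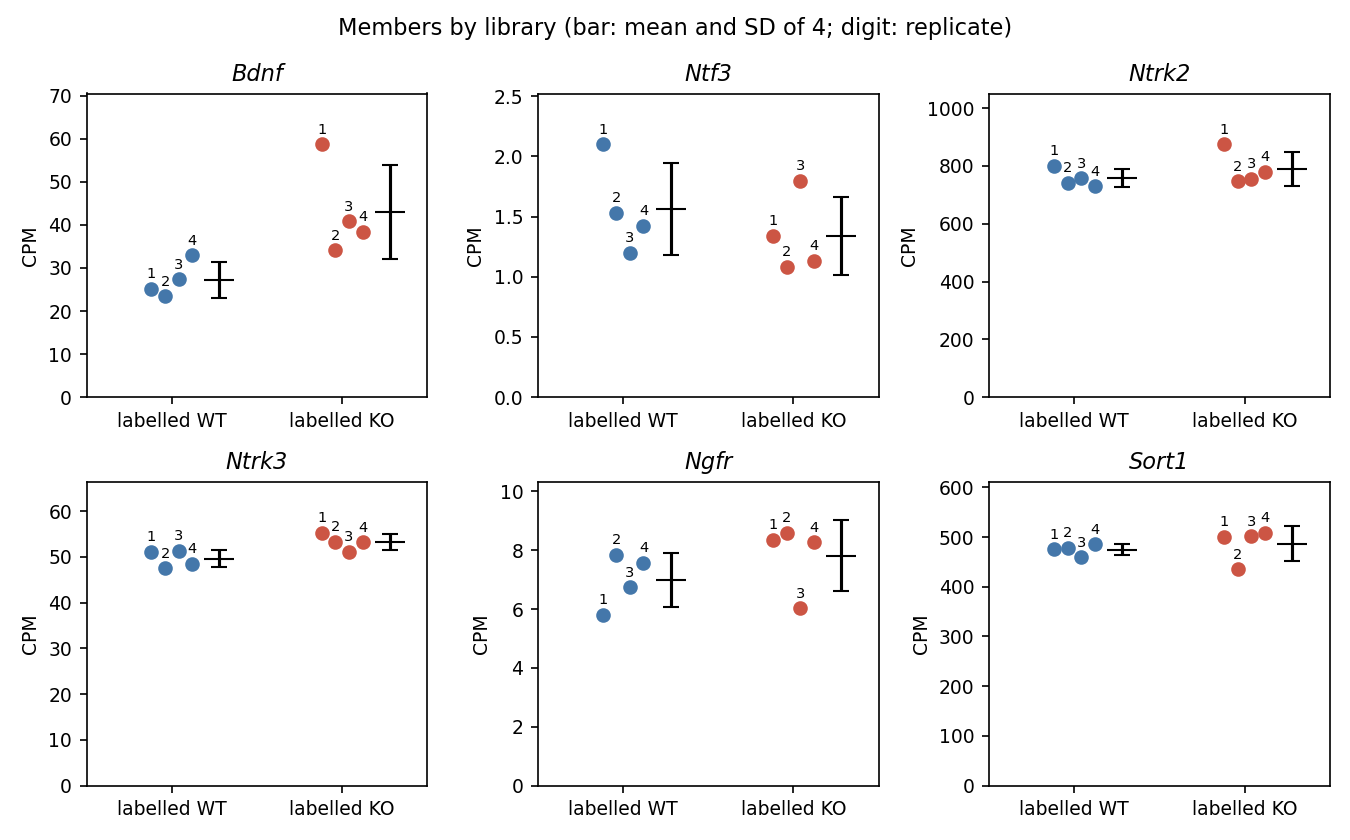
CPM of each member in each library, by label, with the replicate number above each point and the mean and SD of 4 libraries beside it. The Bdnf points of the libraries labelled KO, 34.1 to 58.8 CPM, lie above the WT points, 23.5 to 33.0 CPM, while the groups overlap for the other 5 members.

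The spread and the call of Bdnf both changed with 1 library. Its coefficient of variation was 15.3% in the WT group and 25.2% in the KO group, and 8.93% in the KO group without KO replicate 1. Without KO replicate 1, its highest library, the log2 fold change of Bdnf was smaller, 0.47, but its SE fell from 0.19 to 0.10 and it passed the threshold (adjusted p = 0.0441 by edgeR). Without both libraries numbered 1 it did not pass, at 0.44 (SE 0.11, adjusted p = 0.137). Over 18 alternative settings the log2 fold change ran from 0.44 to 0.75 and the adjusted p from 0.0441 to 0.446, and DESeq2 gave 0.0557.

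**Figure D2:**
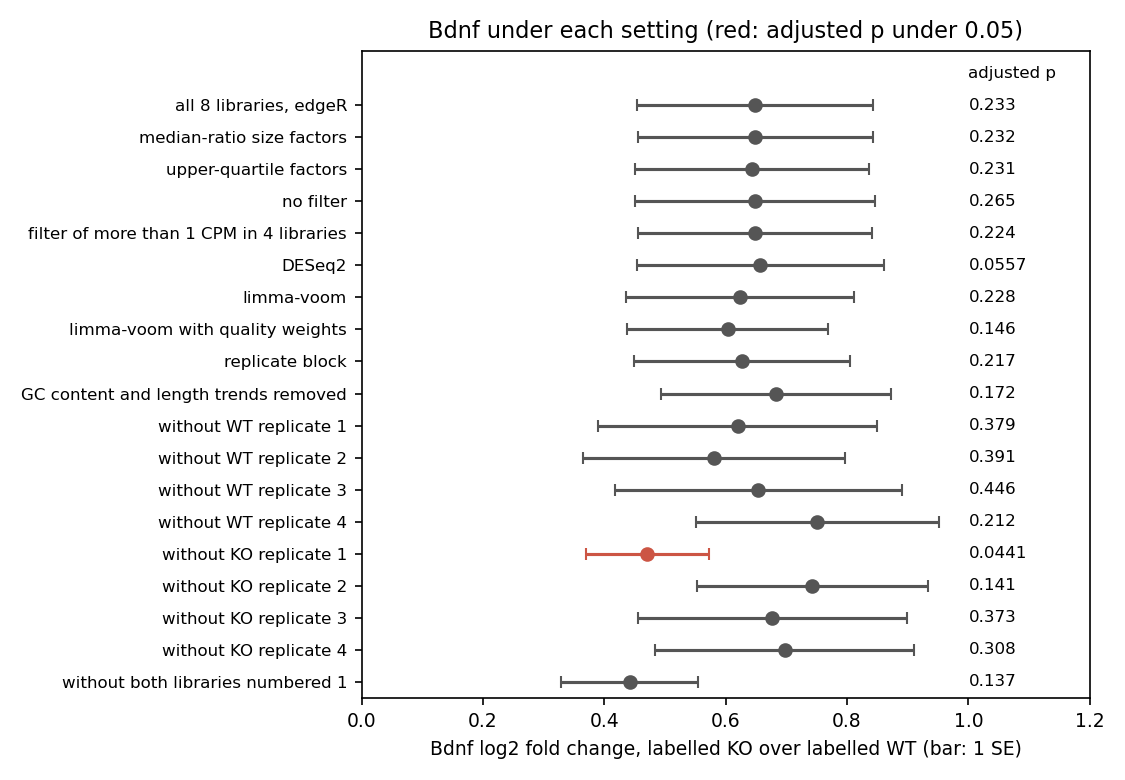
Log2 fold change of Bdnf, KO over WT labels, in the fit of all 8 libraries and under each of 18 alternatives, with a bar of 1 SE and the adjusted p at the right. Leaving out KO replicate 1 gives the narrowest bar and the only adjusted p under 0.05, at 0.0441.

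Ntf3, which encodes neurotrophin 3, was read near the limit of the depth. Ntf3 (ENSMUSG00000049107, chromosome 6, 126101412 to 126166910, minus strand) had between 17 and 34 counts a library, so that counting error alone was 17.1% to 24.3% of a value. Its levels were 2.10, 1.53, 1.199 and 1.43 CPM in WT replicates 1 to 4 and 1.34, 1.08, 1.80 and 1.14 CPM in KO replicates 1 to 4. The groups overlapped, with the highest value in WT replicate 1 and the lowest in KO replicate 2. The log2 fold change was -0.16 (SE 0.24, 95% interval -0.66 to 0.34, adjusted p = 0.849), an interval that holds folds from 0.634 to 1.26.

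Counts of 2 genes in 1 library can be set against each other without scaling between libraries. There were 11.96, 15.3, 22.9 and 23.2 Bdnf counts for each Ntf3 count in WT replicates 1 to 4, and 43.8, 31.5, 22.7 and 33.8 in KO replicates 1 to 4. The groups overlapped here through KO replicate 3, which lay just below the upper WT values. For each Bdnf count there were 31.9, 31.6, 27.6 and 22.1 Ntrk2 counts in WT replicates 1 to 4, and 14.9, 21.9, 18.5 and 20.3 in KO replicates 1 to 4. All KO values of this ligand and receptor pair lay below all WT values, by little between WT replicate 4 and KO replicate 2. The mean ratio in KO was 0.668 of that in WT. Ntrk2 itself differed little between the labels (log2 fold change 0.06), so this ratio largely restates the separation of Bdnf. How many other gene pairs separate in this way was not counted. These ratios are described without a test and are not per length.

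Ntrk2, the receptor of BDNF, was far more abundant than its ligand and differed little between the labels. Ntrk2 (ENSMUSG00000055254, chromosome 13, 58806569 to 59133970, plus strand) stood at 801, 742, 758 and 729 CPM in WT replicates 1 to 4. In KO replicates 1 to 4 it stood at 875, 747, 755 and 779 CPM. The groups overlapped, and the library with the most Bdnf, KO replicate 1, also had the most Ntrk2. The log2 fold change was 0.06 (SE 0.05, 95% interval -0.04 to 0.16, adjusted p = 0.665), which bounds the fold between 0.972 and 1.12. GENCODE M21 lists 7 coding transcripts of Ntrk2, with proteins of 466 to 821 amino acids. The short ones encode receptors without the kinase, a form that astrocytes make in quantity, and counts per gene do not separate them from the kinase form.

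Ntrk3, the receptor of neurotrophin 3, had tighter replicates than Ntrk2. Ntrk3 (ENSMUSG00000059146, chromosome 7, 78175959 to 78738012, minus strand) stood at 51.1, 47.6, 51.4 and 48.5 CPM in WT replicates 1 to 4 and at 55.3, 53.3, 51.1 and 53.3 CPM in KO replicates 1 to 4. KO replicate 3 fell among the WT values and the other KO libraries lay above them. The log2 fold change was 0.10 (SE 0.05, 95% interval -0.01 to 0.21, unadjusted p = 0.061, adjusted p = 0.43, both by edgeR). The groups thus differed by at most 1.15-fold at the upper bound.

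Ngfr, which encodes the p75 receptor, was low, and its groups overlapped. Ngfr (ENSMUSG00000000120, chromosome 11, 95568818 to 95587735, minus strand) stood at 5.80, 7.84, 6.74 and 7.58 CPM in WT replicates 1 to 4 and at 8.35, 8.60, 6.03 and 8.28 CPM in KO replicates 1 to 4. KO replicates 1, 2 and 4 lay above all WT libraries, and KO replicate 3 lay below all but WT replicate 1. The log2 fold change was 0.14 (SE 0.13, 95% interval -0.13 to 0.41, adjusted p = 0.717). Cholinergic neurons of the basal forebrain are a main site of p75 in adult brain, and 5 of their 7 listed markers were matched in the table. None of the 5 passed, their median log2 fold change was 0.02, and their summed level was 49.2 to 55.9 CPM under the WT label and 52.3 to 62.4 CPM under the KO label. Without Ecel1, the most abundant of them, the other 4 summed to 25.5 to 28.6 CPM under the WT label and 24.2 to 25.6 CPM under the KO label.

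Sort1, which encodes sortilin, was abundant and had the smallest difference of the 6. Sort1 (ENSMUSG00000068747, chromosome 3, 108284082 to 108361511, plus strand) stood at 476, 479, 459 and 486 CPM in WT replicates 1 to 4 and at 501, 435, 502 and 509 CPM in KO replicates 1 to 4. Its KO libraries lay on both sides of the WT range, with KO replicate 2 the lowest of all 8. The log2 fold change was 0.04 (SE 0.05, 95% interval -0.06 to 0.13, adjusted p = 0.817), which bounds the fold between 0.959 and 1.095. An antisense gene overlaps exons of Sort1, and another overlaps exons of Bdnf. No source used here states whether the counting used strand, and so reads of these partners cannot be told apart.

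Over the 6 members, 5 log2 fold changes were positive and 1 was negative, with a median of 0.08 against -0.005 over all tested genes. An unadjusted p under 0.05 was reached by 1 of the 6, against 12.6% of all tested genes.

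**Figure D3:**
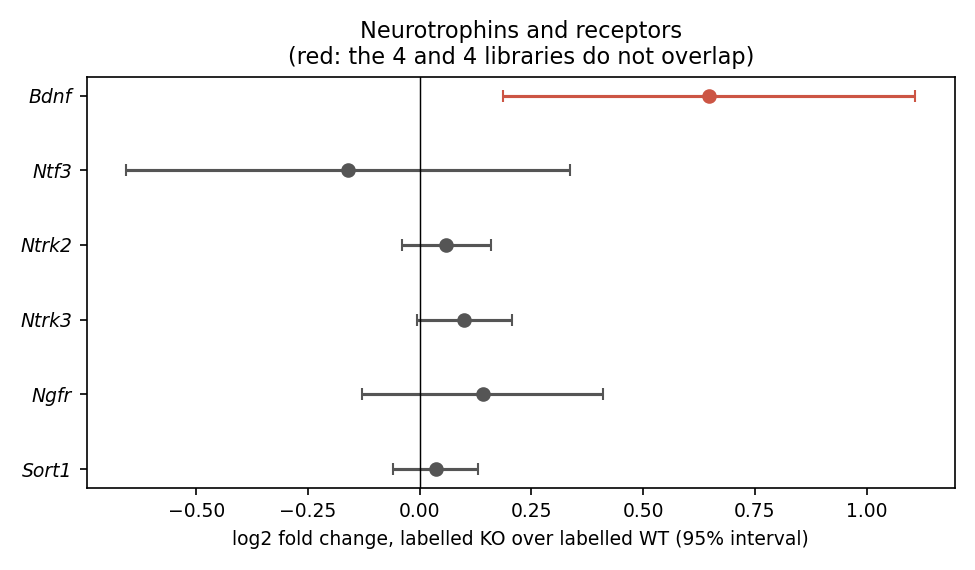
Log2 fold change of each member, KO over WT labels, with 95% intervals. The interval of Bdnf, 0.19 to 1.11, lies above 0, while those of the other 5 members cross 0.

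Per kilobase of the longest coding transcript, the order of levels was Ntrk2, Sort1, Bdnf, Ntrk3, Ngfr and Ntf3. Ntrk2 stood at 88.4 CPM per kilobase over the 8 libraries (range 83.3 to 100.1) and Sort1 at 70.3 (range 63.7 to 74.4), so these neighbours did not overlap. Bdnf followed at 8.24 CPM per kilobase (range 5.50 to 13.8). Ntrk3, at 2.61 (range 2.41 to 2.81), and Ngfr, at 2.15 (range 1.68 to 2.50), overlapped, and Ntf3 was lowest at 0.979 (range 0.730 to 1.42). The order rested on the length taken. With the median coding transcript, Ntrk3 stood at 18.9 CPM per kilobase over the 8 libraries and Bdnf at 6.98 in WT and 11.0 in KO libraries, so that Ntrk3 came before Bdnf. Ntrk2 then stood at 254 CPM per kilobase. With the merged exons of all transcripts, Sort1 at 63.5 CPM per kilobase (range 57.5 to 67.2) lay above Ntrk2 at 40.1 (range 37.8 to 45.4), without overlap. Ntrk3 then stood at 1.71, within the range of Ngfr.

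**Figure D4:**
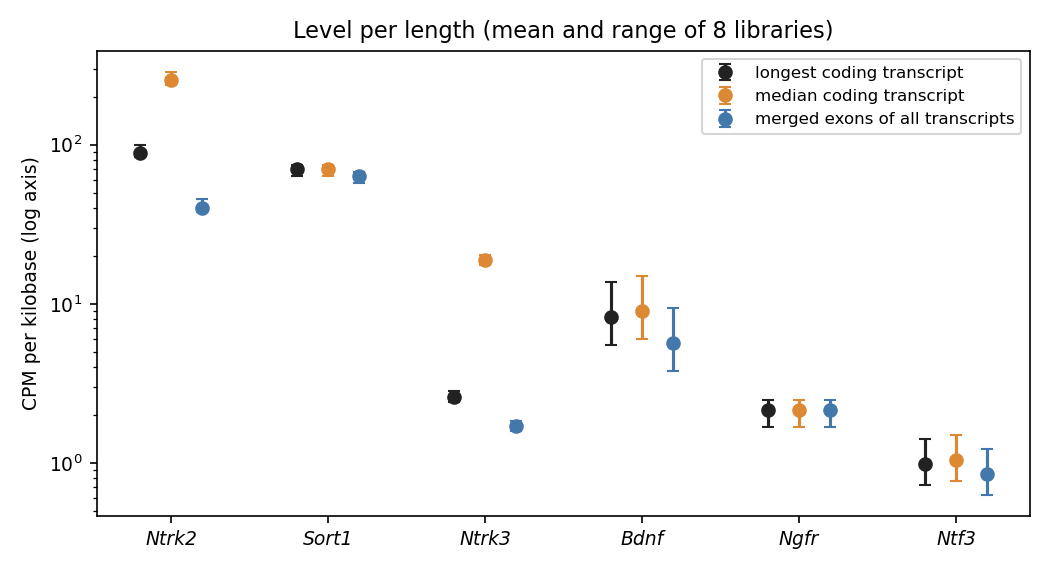
Mean level per kilobase of transcript on a log axis, with the range of the 8 libraries, for the longest coding transcript, the median coding transcript and the merged exons. Ntrk2 runs from 40.1 to 254 CPM per kilobase and Ntrk3 from 1.71 to 18.9, and both change place in the order.

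Likeness was read as the Pearson correlation of log2 CPM over the 8 libraries, among 11646 named genes with a mean of at least 5 CPM. The points share library, depth and label, and the correlations are descriptions only. Bdnf was most like Tmem66 (r = 0.974), Ezr, which encodes the membrane linker ezrin (0.972), and Homer1, which encodes a postsynaptic scaffold with an activity-induced short form (0.962). Within the groups, after taking out each group's mean, these were 0.949, 0.99 and 0.903. Ntrk2 was most like Ubqln2 (0.982), Dnajb6 (0.96) and Ncoa4 (0.945), and Ntrk3 like Zscan12 (0.966) and Tsn (0.95). Ngfr was most like Dfna5 (0.965), Relt (0.944) and Pcbd1 (0.93), Sort1 like Cdc42se2 (0.97), Gnb1 (0.97) and Unc5d (0.962), and Ntf3 like Serp1 (0.959), Tmem161b (0.954) and Ttc8 (0.937). No gene named here was among the nearest of more than 1 member.

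Genes that BDNF is known to induce in neurons included 7 that rose in the libraries labelled KO. Of 40 such genes on a list written for this work, 7 rose, 0 fell and 33 did not pass. That is 17.5% called against 1.43% of all tested genes, with a median of 0.05 on the log2 scale. The list was chosen with earlier results of these data known, and neuronal firing induces most of its members too. Those that rose encode the transcription factor Egr3, the neuropeptide precursors Vgf and Npy, the activin subunit Inhba, the G protein regulator Rgs2, and the pentraxins Nptx1 and Nptx2.

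Egr3 had the lowest p of the list. It stood at 22.8, 25.1, 25.5 and 30.6 CPM in WT replicates 1 to 4 and at 68.8, 59.1, 60.7 and 61.8 CPM in KO replicates 1 to 4, with a log2 fold change of 1.26 (adjusted p = 7.87e-08). Rgs2, which ends signals of Gq-coupled receptors, stood at 59.8 ± 2.55 and 79.1 ± 9.37 CPM in the WT and KO groups, respectively (SD, n = 4; edgeR, adjusted p = 0.00536). Nptx2, a seventh gene that the naming rule did not take, stood at 42.9 to 46.4 CPM in WT libraries and at 182, 112, 110 and 99.6 CPM in KO replicates 1 to 4. Leaving out KO replicate 2 or 3, or a single WT library whichever it was, ended the call of Nptx2 (adjusted p of up to 0.128), but without KO replicate 1 its adjusted p was 1.14e-10. Npy missed the threshold without KO replicate 3 (0.0665), and Vgf with GC content and length trends removed (0.0645).

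The library with the most Bdnf was also the highest KO library for most of the genes that rose. KO replicate 1 was the highest KO library for 6 of these 7 and for 15 of all 40, and KO replicate 3 for 15 of the 40 as well. For Npy, KO replicate 1 was the lowest KO library, at 42.1 CPM against 44.1 to 47.1 CPM. KO replicate 1 was the highest for 38.2% of all genes past the threshold and for 28.2% of all tested genes. Homer1 stood at 234, 157, 170.5 and 175 CPM in KO replicates 1 to 4, against 103 to 158 CPM in WT libraries. Fosb, an AP-1 subunit that firing induces, stood at 44.7, 28.03, 25.4 and 24.8 CPM in KO replicates 1 to 4, against 8.24 to 14.8 CPM in WT libraries. Neither passed the threshold (adjusted p = 0.281 and 0.11). Of the 40 listed genes, 24 had a positive log2 fold change. Npas4 (-0.54) and Fos (-0.25), also on the list, had negative ones and did not pass the threshold. Fosb, Npas4 and Fos were chosen after their values were seen.

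**Figure D5:**
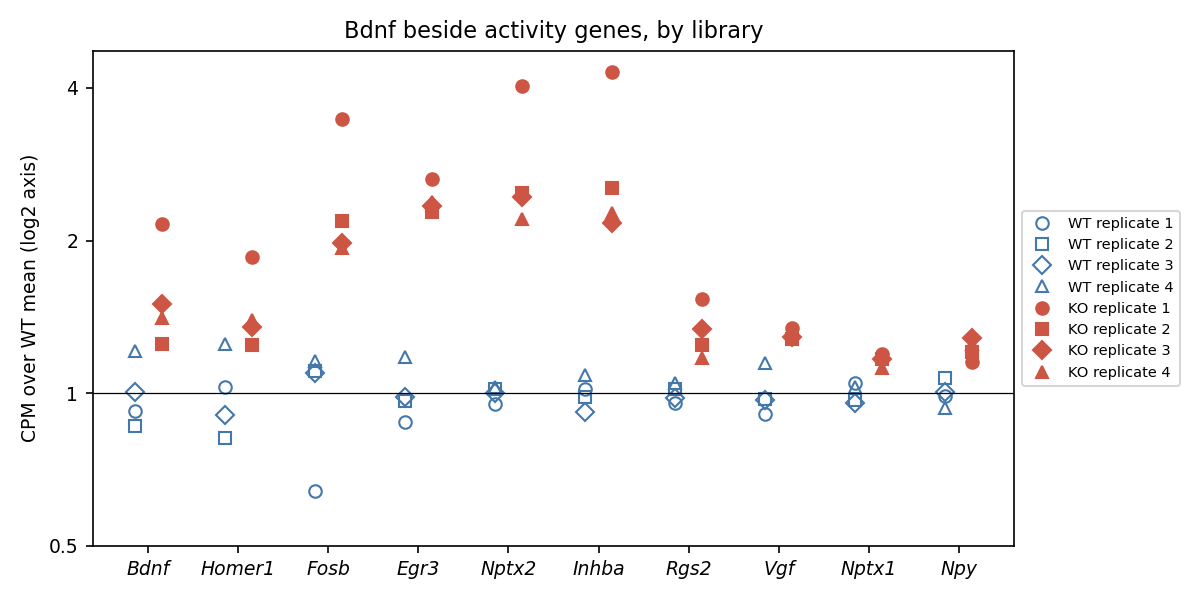
CPM of Bdnf, of Homer1 and Fosb, and of the 7 listed genes that rose, in each library, divided by the mean of the WT libraries, on a log2 axis, with open marks for WT and filled marks for KO labels. KO replicate 1 is the highest mark for 9 of the 10 genes and the lowest KO mark for Npy, at 42.1 CPM.

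Of 16 rapid activity genes listed as markers, 3 rose and 0 fell, where 1.43% of all tested genes passed the threshold. The median log2 fold change of the 16 was -0.071. Their summed level was 661.5 to 1017 CPM under the WT label and 916 to 1144 CPM under the KO label, with none at 0, and KO replicate 1 was the highest KO library for 7 of the 16. All 16 are also on the list of 40, and those that rose were Egr3, Inhba and Nptx2. Arc, a synaptic gene chosen here after its values were seen, ranged from 74.3 to 181 CPM in WT libraries and from 91.2 to 182 CPM in KO libraries. KO replicate 1, highest for Bdnf, was the lowest KO library for Arc, and WT replicate 1 was likewise the lowest WT library for Arc. The part of recent firing in the Bdnf values was not tested.

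Proteases and sorting proteins of the precursors showed no call. Of 16 listed genes tested, 0 passed by edgeR, and 1 had an unadjusted p under 0.05, with a median of 0.03 (log2). That gene was Plat, tissue plasminogen activator, which leads to cleavage of the BDNF precursor by plasmin outside the cell. Plat stood at 31.8, 36.4, 34.9 and 35.2 CPM in WT replicates 1 to 4 and at 43.3, 37.6, 38.9 and 37.3 CPM in KO replicates 1 to 4 (adjusted p = 0.207). Its KO libraries all lay above its WT libraries, where 7.67% of all tested genes had groups that did not overlap. Pcsk5, a convertase, stood at 9.87 ± 1.86 and 11.4 ± 1.03 CPM (SD, n = 4, adjusted p = 0.489 by edgeR). Furin, the convertase of the secretory pathway, had a log2 fold change of 0.02 (SE 0.06).

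Among adaptors and effectors of the Trk receptors, 3 of 52 rose, 0 fell and 49 did not pass, which is 5.77% called against 1.43% of all tested genes. The median of the 52, on the log2 scale, was -0.008. Those that rose were Rps6ka2, an RSK kinase downstream of the MAP kinases, Ptprf, the LAR phosphatase, and Islr2, a membrane protein that binds Trk receptors. Rps6ka2 stood at 88.2 to 94.2 CPM in WT libraries and 101.6 to 112 CPM in KO libraries (adjusted p = 0.0117). Ptprf stood at 84.4 to 93.7 and 100.7 to 106.5 CPM (adjusted p = 0.0121), and Islr2 at 34.2 to 41.0 and 43.0 to 51.2 CPM (adjusted p = 0.0342). None of the 3 overlapped between the groups, a pattern that 7.67% of all tested genes showed. The 3 were picked by their calls, so this adds no separate support. These calls changed with the libraries used: 0 of 52 passed without WT replicate 3, 1 without KO replicate 4, 1 without both libraries numbered 1, and 6 without KO replicate 2. Islr2 missed the threshold without WT replicate 1, 3 or 4 or KO replicate 1, 3 or 4 (highest adjusted p 0.153), and with GC content and length trends removed, at 0.1.

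Among partners and effectors of p75, 1 of 29 rose, 0 fell and 28 did not pass, which is 3.45% called against 1.43% of all tested genes, with a median of 0.03 (log2). The gene that rose was Lingo1, which forms a complex with p75 and the Nogo receptor. Lingo1 stood at 188, 207, 186 and 211 CPM in WT replicates 1 to 4 and at 302, 271, 287.5 and 312 CPM in KO replicates 1 to 4. Its log2 fold change was 0.57 (SE 0.05, adjusted p = 9.51e-06), and it passed whichever library was left out. Adam17, a protease that sheds the p75 ectodomain, stood at 27.2 ± 0.87 and 24.7 ± 1.59 CPM (SD, n = 4, adjusted p = 0.379 by edgeR).

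Of the 36 regulators of Bdnf transcription tested, 1 rose, 0 fell and 35 did not pass, which is 2.78% called against 1.43% of all tested genes, with a median of -0.001 (log2). The gene that rose was Gadd45b, tied to DNA demethylation at Bdnf promoters. Gadd45b stood at 7.23, 10.5, 8.24 and 9.97 CPM in WT replicates 1 to 4 and at 18.3, 20.4, 15.5 and 13.9 CPM in KO replicates 1 to 4 (adjusted p = 0.00161). Its highest library was KO replicate 2, not the library highest for Bdnf. Tet1, a methylcytosine dioxygenase, stood at 21.7 ± 0.77 and 18.7 ± 1.19 CPM (SD, n = 4, adjusted p = 0.158 by edgeR). Creb1, whose product binds Bdnf promoters, was also not past the threshold, at a log2 fold change of 0.07 (SE 0.06).

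Cell types that carry these receptors were read by their markers. The 10 astrocyte markers summed to 5946 to 6058 CPM under the WT label and 5617 to 6065 CPM under the KO label, with 0 past the threshold and a median log2 fold change of -0.029. The 9 markers of excitatory neurons, the main source of Bdnf, summed to 3621 to 4133 and 3780 to 4099 CPM, with 1 past the threshold, Emx1, and a median of 0.08. The 10 markers of cerebellar granule cells summed to 1308 to 1579 CPM under the WT label and 1125 to 1458 CPM under the KO label, with 0 past the threshold and a median of -0.138. Of 8 dentate granule cell markers, Pdzd2 rose and Dsp fell, and the median was -0.07. The 10 markers of inhibitory neurons summed to 1899 to 2073 CPM under the WT label and 2023 to 2189 CPM under the KO label. Among them 1 passed the threshold, Npy, and their median was 0.085. For comparison, 1.43% of all tested genes passed. The 13 markers of vessels and meninges summed to 382 to 408 CPM under the WT label and 357 to 384 CPM under the KO label, with 0 past the threshold and a median of -0.132. For every list in this paragraph the summed levels overlapped between the labels. Whether any difference in cell types has a part in the values of the members was not tested.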

How the data were processed

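Per the labels' protocols, brain RNA was extracted with Trizol, cleaned on columns and made into stranded mRNA libraries. The authors deposited estimated read counts (expected counts) per gene and library, unscaled, of which 91.5% were whole within 0.001. Per the submitters' processing notes, TopHat2 2.0.9, edgeR and GRCm38 (mm10) were used, in roles not given there. Genes of the table were matched to GENCODE M21 (17286 of 17613 identifiers) for positions and lengths.

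Counts were rounded, filtered by filterByExpr, scaled by TMM and tested with edgeR 4.0.16 under R 4.3.3. The test was the quasi-likelihood F test, with robust dispersions and the label as its only term, fitted over all genes together. SE and 95% intervals come from the coefficient and its F statistic. The code was tested on simulated data. Every pair of same-label libraries differed beyond counting noise (chi-square per degree of freedom 2.44 to 5.02), so all 8 were kept. Hdac4 and Lingo2 have 2 rows each, and the row whose identifier GENCODE gives that symbol was used. Counting errors cover counting only.

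The members, lists and tests were chosen with earlier results of these data known. Genes were named by a rule: the members, Uhrf2, up to 6 called genes and at least the 2 lowest p of each list, and the 3 genes most like each member (log2 CPM, prior count 2). Other genes were named after their values were seen. Some genes that the rule names are not reported here. Alternatives were other scalings and filters, DESeq2 1.42.0, limma-voom (limma 3.58.1) with and without quality weights, the replicate number as a block, and leaving out libraries. Removal of GC content and length trends, the length of merged exons, and the values of Bdnf spread and cholinergic markers without their highest library or gene were added after seeing the data.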

Additional observations from a re-analysis of the deposited data

Results flagged for a closer look

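The Ngfr level of KO replicate 3, 6.03 CPM, lay far below those of the other 3 KO libraries, by a gap of 0.876 of the range of its group. The Sort1 level of KO replicate 2, 435 CPM, lay far below those of the other 3 KO libraries, by 0.893 of the range. Chance alone marks about 1 in 20 groups this way, and each of the 6 members was read in both groups. The high Bdnf value of KO replicate 1 was not far enough from the others to be marked.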

How the results depend on the processing

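Ntrk2, Ntrk3, Ngfr, Sort1 and Ntf3 kept their direction and stayed short of the threshold under every alternative that gave a value (18 for the first 4, and 17 for Ntf3, for which DESeq2 gave no adjusted p). Some of these directions were only nominal. Without KO replicate 1 the log2 fold change of Ntrk2 was 0.006 (SE 0.04). Without both libraries numbered 1 that of Ntf3 was -0.008 (SE 0.27). Bdnf kept its direction in all 18 and passed only without KO replicate 1, with the lowest log2 fold change of the fits without 1 library, 0.471, against a highest of 0.751. The count of members past the threshold thus ran from 0 to 1. The number of genes past the threshold, 228 with all libraries, ran from 110 to 324 without 1 library and was 495 with the replicate number as a block. The replicate block gave Bdnf a log2 fold change of 0.627 (adjusted p = 0.217). It gave 2 called regulators of Bdnf transcription in place of 1, and took Nptx2 out (adjusted p = 0.0894). Same-numbered libraries deviated from their group means with correlations of 0.0245 to 0.208, and WT replicates 1, 2 and 4 were each most like the KO library of their number while WT replicate 3 was most like KO replicate 2. As not every correlation was above 0.1, the numbers were not taken to pair libraries. The main test therefore does not remove what the libraries numbered 1 share, whose correlation, 0.208, was the highest. Called Trk adaptors and effectors ran from 0 to 6 of 52 without 1 library and were 1 without both libraries numbered 1. Median transcript length moved Ntrk2 from 88.4 to 254 CPM per kilobase and Ntrk3 from 2.61 to 18.9. The length of merged exons, added after seeing the data, gave 40.1 for Ntrk2, 1.71 for Ntrk3 and 63.5 for Sort1, against 70.3 for Sort1 with the longest transcript. Depth limits Ntf3, whose levels lie between 1.08 and 2.10 CPM.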
